A study of Mus musculus with 6 samples.

Results

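Postsynaptic density scaffolds were followed through neuronal depolarization in RNA bisulfite sequencing (RNA BS-seq) libraries. The 8 genes were Shank1, Shank2, Shank3, Dlg4, Dlgap1, Dlgap2, Dlgap3, and Dlgap4, taken by name from the gene annotation of the deposited cytosine lists, and the rule that picks them uses no measured value. Every listed position of these genes with a reference cytosine was kept, which gave 9183 cytosines of the 5240657 listed in at least 1 library, and 8 genes of the 16435 with a listed cytosine. A library held between 2651 and 3899 of these cytosines. All 8 genes lie on the plus strand, and each of the 9183 positions was a cytosine in the GRCm38 genome.

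The RNA came from cortical neurons of wild-type C57BL/6 mouse embryos at E16.5, with male and female embryos pooled, and no transgene or knockout was involved. All cultures, the 0 h controls included, had been silenced overnight from day 6 in vitro with 1 μM tetrodotoxin, a blocker of voltage-gated sodium channels, and 100 μM DL-AP5, a blocker of NMDA receptors. The neurons were then exposed to 55 mM KCl, which depolarizes the membrane, for 0 h, 2 h, or 6 h, and each time point had 2 biological replicates. RNA was selected for poly(A) tails and treated with bisulfite, which turns unmethylated cytosine into uracil, read as thymine, and leaves 5-methylcytosine (m5C) as cytosine. The methylation level of a cytosine is the share of reads in which it stayed unconverted, and its coverage is the number of reads over it. A cytosine that escaped conversion without a methyl group counts as methylated in the same way.

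The postsynaptic density is the protein mesh under the membrane of excitatory synapses. Dlg4 encodes PSD-95, a membrane-associated guanylate kinase (MAGUK) whose PDZ domains hold NMDA receptors and the auxiliary subunits of AMPA receptors. Dlgap1 to Dlgap4 encode the SAPAP (GKAP) proteins, which bind the guanylate kinase domain of PSD-95 and the PDZ domain of SHANK proteins. Shank1 to Shank3 encode the SHANK proteins, which assemble into a deeper layer and bind Homer proteins and the actin cytoskeleton.

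The cytosines that reached the methylation threshold in these genes are printed first, each with the 10 bases on either side. The threshold was a level of at least 10% with at least 6 unconverted reads. The sequences run 5′ to 3′ on the plus strand of GRCm38, which is also the RNA strand, and the capital marks the measured cytosine. The first pair passed in the 2 replicates of at least 1 time point, the next 3 cytosines passed in 1 library only, and the last lay far below the threshold and was chosen after its values were seen, because it had the highest pooled level of the 114 Dlg4 cytosines listed in all 6 libraries.
Shank3, coding part of exon 11, chr15:89524070-89524090: cggcgtctccCgcgccccccg
Shank3, intron after exon 21, chr15:89555377-89555397: actgcctcccCgaggacctca
Shank3, the same intron, chr15:89555314-89555334: attgcctggcCttgttgggct
Dlg4, coding part of exon 12, chr11:70041448-70041468: gtggcaagcgCggcgggtcca
Dlgap2, 5′ UTR in exon 2, chr8:14179592-14179612: tcatctgaggCccggccatag
Dlg4, coding part of exon 18, chr11:70043673-70043693: cttgatgtctCagccaatgcc
No other annotated gene overlaps these 6 positions. Exon numbers refer, for each gene, to the annotated protein-coding transcript that held most of its listed cytosines.

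The libraries were deep, with a median coverage of 324 to 480 reads at a listed cytosine. Only cytosines with at least 10 reads and at least 1 unconverted read were listed. In the most deeply covered cytosines with a level under 1%, 0.0837% to 0.0869% of reads were unconverted in 5 libraries and 0.115% in 6 h replicate 1. All 7 neuronal markers, Map2, Snap25, and Stmn2 among them, had windows covered in every library. At 6 h 2 of the 7 rose and 1 fell, with Nefl, a neurofilament gene, at a log2 fold change of 1.23 and Tubb3, a neuronal tubulin gene, at -1.17 (both edgeR adjusted p = 2.54e-06). Of the 5 microglial markers Csf1r, C1qa, and P2ry12 were not listed, while Cx3cr1 was covered and fell at 6 h (log2 fold change -0.81). Astrocyte markers were covered too, with Gfap at 683.5 and 833 reads per window at 0 h, and 5 of the 7 astrocyte markers fell at 6 h. Of 5 inhibitory neuron markers, 4 rose at 6 h and 1 fell, and of 5 excitatory neuron markers 3 rose and 1 fell. Of the 4 oligodendrocyte lineage markers tested, Olig1, Olig2, and Mbp rose and Pdgfra fell. At 2 h 3 of the 7 neuronal markers rose and 1 fell, 3 of the 5 inhibitory markers rose and none fell (Sst 0.75), 1 of the 5 excitatory markers rose and 2 fell (Tbr1 -0.89), 1 of the 7 astrocyte markers fell, Olig1 (-0.50) and Pdgfra (-0.41) fell, and Cx3cr1 fell (-0.47), all as log2 fold changes. Over all genes 30.9% rose and 33.5% fell at 6 h on the same basis, windows of 50 bases. The part of these shifts in the changes below was not tested, and in bulk RNA fewer cells of a type cannot be told apart from less RNA per cell. The induction of activity-dependent genes was large, with Fos at 33.3 and 39.8 reads per window at 0 h and at 5455 and 5219 at 2 h.

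Coverage was used as the measure of RNA amount. A cytosine is listed only where some read stayed unconverted, so the listed set differed between libraries, and 2 bases of comparison were used. The first summed the coverage of cytosines listed in all 6 libraries and could test 5 of the 8 genes, those with at least 5 such cytosines, among 2671 genes in all. The second took windows of 50 bases with a listed cytosine in all 6 libraries, averaged the coverage within each window, and tested all 8 genes among 8865. Dlgap2 had only 1 such window, in exon 16. The windows were added after the data were seen. The values below are reads per window or per common cytosine, scaled for library size, and are thus levels per position that do not grow with transcript length.

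Dlg4 and Dlgap4 were the most highly covered of the 8 genes. At 0 h the windows of Dlg4 averaged 1636 ± 22.01 reads (mean ± SD, n = 2), those of Dlgap4 1313 ± 76.3, Dlgap1 790.4 ± 36.8, and Dlgap3 681 ± 11.6. Shank3 (453 ± 28.1) and Shank1 (449 ± 71.1) did not differ beyond their spread, nor did Dlgap2 (326 ± 35.8) and Shank2 (324 ± 21.6). The order changed at 6 h. Dlg4 (1579.8 ± 70.8) and Dlgap4 (1501 ± 44.0) then overlapped, Dlgap2 (719 ± 35.4) stood beside Dlgap3 (701 ± 2.14), and Shank1 (319 ± 0.680) lay near Shank2 (306 ± 2.30) in place of Shank3 (595 ± 27.9). The level of Dlgap2 is that of 1 window, set beside 46 windows of Dlgap3. Over all listed cytosines at 6 h, a set that differs between libraries, the unscaled median coverage was 80 and 218 reads in Dlgap2 against 645 and 727 in Dlgap3. By that median Dlg4 and Dlgap4 did not overlap at 6 h, with 1106 and 1180 reads against 280 and 314.

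**Figure D1:**
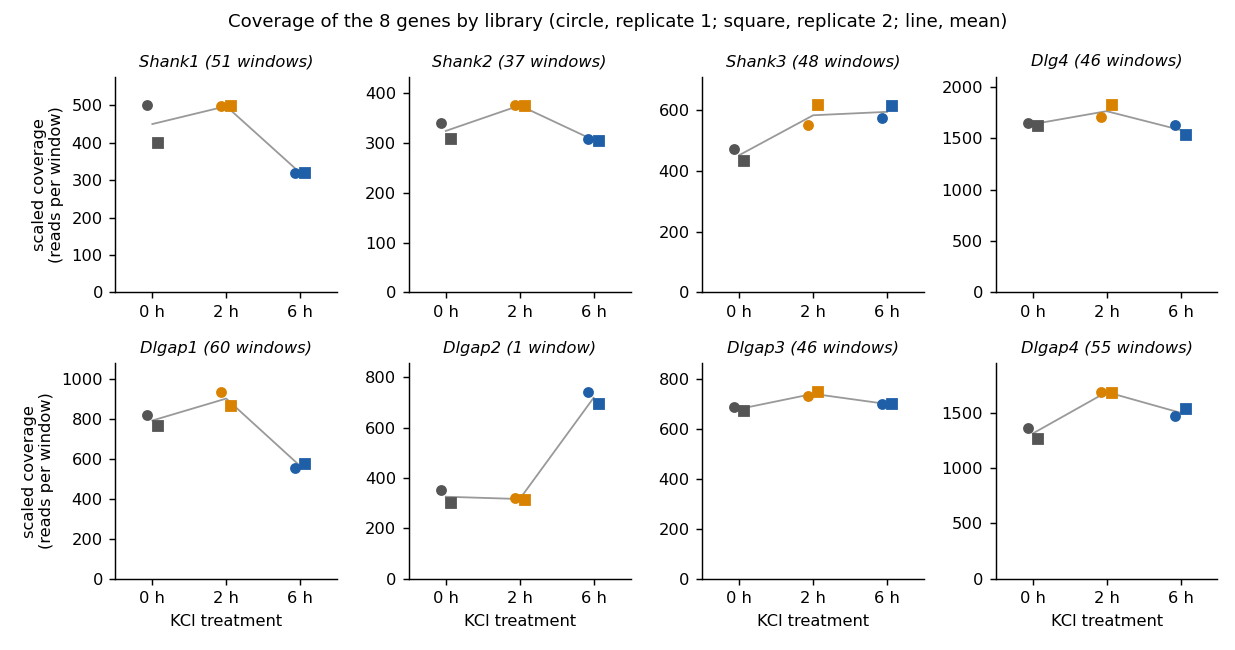
Scaled coverage in reads per window of 50 bases (vertical axes, each from 0) for the 8 genes against the hours of KCl (horizontal axes). Each point is 1 library (circle, replicate 1, and square, replicate 2) and the line joins the means. Shank1 and Dlgap1 are lowest at 6 h, Dlgap2 is highest at 6 h, and Shank3 and Dlgap4 are above their 0 h values at both later times.

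At 2 h, 4 of the 8 genes rose by windows and none fell. These were Shank2, Shank3, Dlgap1, and Dlgap4. Among all 8865 genes, 18.5% rose and 21.3% fell. By common cytosines 1 of 5 genes, Dlgap4, rose, against 13.7% of all genes rising and 14.3% falling. At 6 h against 0 h, 3 of 8 rose by windows (Shank3, Dlgap2, Dlgap4) and 2 fell (Shank1, Dlgap1), against 30.9% and 33.5% of all genes. By common cytosines 2 of 5 rose (Shank3, Dlgap4) and 2 fell (Dlg4, Dlgap1), against 28.9% and 33.2%. Between 2 h and 6 h, 1 of 8 rose by windows (Dlgap2) and 5 fell (Shank1, Shank2, Dlg4, Dlgap1, Dlgap4), against 31.1% and 32.0% of all genes. By common cytosines none of 5 rose and 1 fell (Dlgap1), against 23.8% and 27.9%. With so few genes, nothing is read from these counts alone. The 3 comparisons share libraries and are given side by side.

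**Figure D2:**
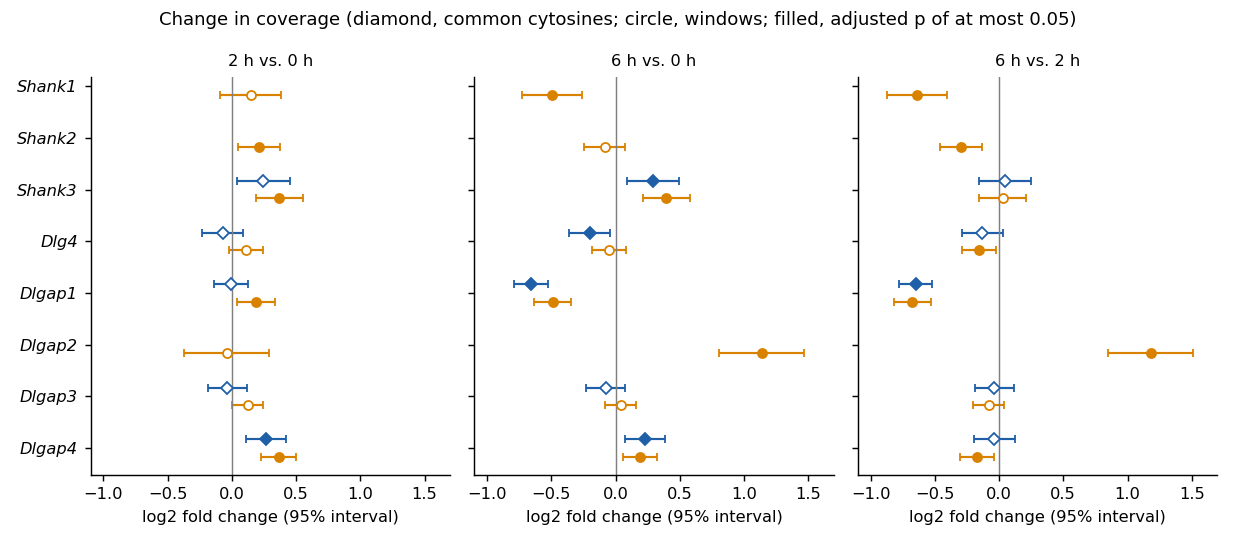
Log2 fold change in coverage with its 95% interval (horizontal axes) for each of the 8 genes (vertical axis) in the 3 comparisons, by common cytosines (diamonds, 5 genes) and by windows of 50 bases (circles, 8 genes). Filled symbols have an adjusted p of at most 0.05, and Dlgap2 lies farthest to the right and Shank1 and Dlgap1 farthest to the left in the comparisons of 6 h.

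Dlg4, the PSD-95 gene at chr11:70016942-70047522, passed the test in some comparisons only, and no call on it held with each library left out. Its common cytosines had 2538 and 2591 reads before KCl, 2364 and 2517 after 2 h, and 2337 and 2124 after 6 h, and the 6 h libraries lay below the 0 h libraries. The difference at 6 h was a log2 fold change of -0.20 ± 0.066 (SE; edgeR adjusted p = 0.0373, 114 cytosines), and it was lost when 0 h replicate 1, 0 h replicate 2, or 6 h replicate 2 was left out, with adjusted p values up to 0.199. RLE scaling also ended it (edgeR adjusted p = 0.0508), and summing every listed cytosine turned its direction (0.09 ± 0.197, edgeR adjusted p = 0.814). By windows Dlg4 had 1652 and 1621 reads before KCl, 1705 and 1821 after 2 h, and 1629.8 and 1529.7 after 6 h. The 0 h and 6 h values overlapped, and the log2 fold change was -0.05 ± 0.058 with a 95% interval from -0.18 to 0.08 (edgeR adjusted p = 0.462). From 2 h to 6 h it was -0.16 ± 0.058 by windows (edgeR adjusted p = 0.0426), which passed in 1 of the 6 fits with a library left out, the fit without 2 h replicate 1, with adjusted p values up to 0.316, and which RLE scaling ended (edgeR adjusted p = 0.0554).

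The exons of Dlg4 did not move together at 6 h. Exon 11 averaged 691 and 531 reads before KCl, 717 and 868 after 2 h, and 831 and 830.2 after 6 h, so that both 6 h libraries were above both at 0 h. Its 18 cytosines listed in all 4 libraries at 0 h and 6 h were all higher at 6 h, with a median log2 ratio of 0.45. Exon 17 averaged 3721 and 3929.8 reads before KCl and 3646 and 3309 after 6 h. In exons 16 to 19 cytosines went the other way by a small amount, with median log2 ratios from -0.08 to -0.15, and in exon 18 all 21 were lower at 6 h. Cytosines of 1 exon share reads and are not independent, and these exons were named after their values were seen.

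Dlgap1, which encodes SAPAP1 at chr17:69969073-70821413, fell at 6 h. Its common cytosines had 1438 and 1456 reads before KCl, 1461 and 1415 after 2 h, and 921 and 912 after 6 h. The 6 h libraries stood well apart from the other 4, with a log2 fold change of -0.66 ± 0.054 against 0 h (edgeR adjusted p = 0.000180) and of -0.65 ± 0.054 against 2 h (edgeR adjusted p = 0.000411). By windows the values were 816 and 764 before KCl, 935 and 865 after 2 h, and 554 and 573 after 6 h. The log2 fold change from 0 h to 6 h was -0.49 ± 0.062 (edgeR adjusted p = 0.000272), and 54 of its 60 windows had both 6 h libraries below both 0 h libraries. Exons 1 and 2, named after their values were seen, did not share the fall. Exon 1 averaged 206 and 212 reads before KCl and 205 and 214 after 6 h. In exon 2, 33 cytosines were listed in at least 1 library at both times, and none was lower at 6 h (median log2 ratio 0.21). Leaving out any of the 6 libraries kept the fall at 6 h past the threshold on both bases. The rise at 2 h by windows was 0.19 ± 0.062 (edgeR adjusted p = 0.0450) and was kept in 1 of the 6 fits with a library left out, the fit without 2 h replicate 2. By common cytosines the change at 2 h was -0.01 ± 0.054 (edgeR adjusted p = 0.915).

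Dlgap2, which encodes SAPAP2 at chr8:14095865-14847680, had the fewest listed cytosines of the 8 genes (470) and no cytosine listed in all 6 libraries. Its window in exon 16 had 351 and 300.5 reads before KCl, 319 and 314 after 2 h, and 744 and 694 after 6 h, so that the 6 h libraries held more than the other 4 without overlap. The log2 fold change from 0 h to 6 h was 1.14 ± 0.142 (edgeR adjusted p = 0.000241), the largest of the 8 genes, and it passed the threshold in all 6 fits with a library left out. A single window carries this test, and the sum of every listed cytosine did not call Dlgap2 at 6 h. As a description, 18 cytosines over 8 exons from exon 5 to exon 16, those of the window included, were listed in at least 1 library at 0 h and at 6 h, and all 18 were higher at 6 h, with a median log2 ratio of 1.12. At 2 h the change of the window was -0.04 ± 0.144 (edgeR adjusted p = 0.842), and of 9 cytosines over 5 exons listed in at least 1 library at 0 h and at 2 h, 6 were lower and 3 higher at 2 h, with a median log2 ratio of -0.72.

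Dlgap3, which encodes SAPAP3 at chr4:127169204-127237022, passed no test. Its windows had 689 and 673 reads before KCl, 733 and 751 after 2 h, and 699 and 702 after 6 h. By windows the 2 h libraries were the highest, yet the log2 fold change of 0.12 ± 0.052 missed the threshold (edgeR adjusted p = 0.0967, 95% interval from 0.00 to 0.24). By common cytosines, 6 in this gene, the values were 1008 and 994 before KCl and 957 and 997 after 2 h, which overlapped, and the log2 fold change was -0.04 ± 0.062 (edgeR adjusted p = 0.699). At 6 h it was 0.04 ± 0.052 by windows (95% interval from -0.08 to 0.16) and -0.08 ± 0.062 by common cytosines (edgeR adjusted p = 0.335).

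Dlgap4, which encodes SAPAP4 at chr2:156613705-156764363, rose at 2 h. Its common cytosines had 4986 and 4602 reads before KCl, 5960.1 and 5559 after 2 h, and 5714 and 5517 after 6 h. All 4 libraries after KCl were above the 0 h libraries, with log2 fold changes of 0.26 ± 0.065 at 2 h (edgeR adjusted p = 0.0278) and 0.23 ± 0.065 at 6 h (edgeR adjusted p = 0.0223). By windows it had 1367 and 1259 reads before KCl, 1693 and 1684 after 2 h, and 1469 and 1532 after 6 h, with log2 fold changes of 0.36 ± 0.057 (edgeR adjusted p = 0.00199) and 0.19 ± 0.057 (edgeR adjusted p = 0.0185). The rise at 2 h by windows passed in all 6 fits with a library left out. By common cytosines it passed in 2 of them and was lost without 0 h replicate 2, 2 h replicate 1, 6 h replicate 1, or 6 h replicate 2. The rise at 6 h was lost on both bases without 0 h replicate 2, 6 h replicate 1, or 6 h replicate 2. It was not shared by most windows, since of 53 windows 18 had both 6 h libraries above both 0 h libraries and 25 had both below, with a median log2 ratio of -0.19, while at 2 h 37 were above and 1 below.

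Within Dlgap4 the 2 later time points differed along the transcript. At 2 h most of the transcript was higher. Of the 318 cytosines listed in at least 1 library at both times, 307 were above their 0 h value. Windows from 71.3% of the transcript on went both ways at 2 h, with log2 ratios from -0.30 to 0.34. At 6 h exons 8 and 10 to 13 averaged higher, as in exon 12, which averaged 5859 and 5257 reads before KCl and 7187 and 7078 after 6 h. Exons 2, 3, 4, and 7 were lower at 6 h, while in exon 5 the libraries overlapped and exon 6 had no window. Exon 2 averaged 262 and 253 reads before KCl, 299 and 340.5 after 2 h, and 143 and 171 after 6 h, and exon 4 averaged 267 and 181 before KCl and 131 and 130.3 after 6 h. In exons 2 to 7 all 24 cytosines listed at 0 h and 6 h were lower at 6 h (median log2 ratio -0.45), while at 2 h 32 of 35 were higher (median 0.37). Exon 13 was split. Of the 42 cytosines of its coding part listed in at least 1 library at both times, 16 were lower at 6 h (median 0.25). Of the 40 in its 3′ UTR, 37 were lower (median -0.31). The 14 of the coding part listed in all 4 libraries were all higher at 6 h (median 0.30). Exon 9, covered far less than its neighbours, was lower at both times, with 315 and 283 reads before KCl, 179.6 and 203 after 2 h, and 153 and 171 after 6 h. The annotation has 3 further protein-coding transcripts that start between exons 7 and 8. These exons were grouped after their values were seen.

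A coarser measure, added after the data were seen, compared the 3′ part with the 5′ part of each gene's common windows, split at their middle, in 4904 genes with at least 10 windows. By limma, none of the 7 genes that could be tested passed in any of the 3 comparisons, against 0.204%, 1.90%, and 1.02% of all genes for 2 h against 0 h, 6 h against 0 h, and 6 h against 2 h. At an unadjusted p under 0.05, 0, 1, and 1 of the 7 genes were counted, with 570, 803, and 552 of all genes. Dlgap4 had log2 ratios of the 3′ part over the 5′ part of 1.7003 and 1.698 before KCl, 1.80 and 1.72 after 2 h, and 2.00 and 1.91 after 6 h. Its difference at 6 h was 0.26 ± 0.073 (limma adjusted p = 0.138). A split at the middle does not follow the exon groups described for Dlgap4 and Shank3 and is no test of them.

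Shank1, at chr7:44310253-44360572, fell at 6 h. Its windows had 499.7 and 399 reads before KCl, 496 and 498 after 2 h, and 319 and 319.7 after 6 h, and the 6 h libraries lay below the other 4. The log2 fold change was -0.49 ± 0.101 against 0 h (edgeR adjusted p = 0.00357) and -0.64 ± 0.101 against 2 h (edgeR adjusted p = 0.00109), and both passed in all 6 fits with a library left out. The 0 h libraries differed, and the change from 0 h was -0.32 without 0 h replicate 1 and -0.65 without 0 h replicate 2. Summing every listed cytosine did not call the fall from 0 h. The fall ran along the gene. Both 6 h libraries were below both 0 h libraries in 15 of the 16 exons with windows and in 39 of 51 windows, and no window went the other way. From 0 h to 2 h the change was 0.15 ± 0.1003 (edgeR adjusted p = 0.291). It was 0.32 without 0 h replicate 1, which passed the threshold (edgeR adjusted p = 0.0295), and -0.01 without 0 h replicate 2 (edgeR adjusted p = 0.947).

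Shank2, at chr7:144001928-144424494, was higher at 2 h than before or after. Its windows had 339.6 and 309 reads before KCl, 376 and 375 after 2 h, and 308 and 304 after 6 h. The rise of 0.21 ± 0.070 at 2 h (edgeR adjusted p = 0.0445) was lost in each of the 6 fits with a library left out, with adjusted p values from 0.0541 to 0.237. The fall from 2 h to 6 h was -0.30 ± 0.070 (edgeR adjusted p = 0.00692) and was lost without 6 h replicate 2 (adjusted p = 0.0581). As a description, 250 of the 293 Shank2 cytosines listed in at least 1 library at 0 h and at 2 h were higher at 2 h, with a median log2 ratio of 0.23.

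Shank3, at chr15:89499623-89560261, rose at both times by windows. Its windows had 472 and 433 reads before KCl, 551 and 617 after 2 h, and 575 and 615 after 6 h, and no library after KCl overlapped those at 0 h. The log2 fold change was 0.37 ± 0.079 at 2 h (edgeR adjusted p = 0.00802), lost only without 0 h replicate 2 (adjusted p = 0.0695), and 0.40 ± 0.079 at 6 h (edgeR adjusted p = 0.00279), kept in all 6 such fits. Its 8 common cytosines had 665 and 624 reads before KCl, 728 and 799.9 after 2 h, and 755 and 822 after 6 h. On these the change was 0.25 ± 0.084 at 2 h (edgeR adjusted p = 0.0762) and 0.29 ± 0.084 at 6 h (edgeR adjusted p = 0.0236), the latter lost without 0 h replicate 1, 0 h replicate 2, or 6 h replicate 2.

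Shank3 also moved unevenly along the transcript at 6 h. The last exon, exon 22, averaged 694 and 651 reads before KCl, 846 and 910.3 after 2 h, and 927 and 1072 after 6 h. Exon 11, which carries a cytosine that passed the methylation threshold, averaged 209 and 219.8 reads before KCl, 179 and 293 after 2 h, and 179 and 132 after 6 h. The 3 cytosines of exon 11 listed at 0 h and 6 h in all 4 libraries were each lower at 6 h, with a median log2 ratio of -0.43, and the 5 of exon 22 were each higher, with a median of 0.62. Counting cytosines listed in at least 1 library at both times, 50 of 53 in exons 4 to 16 were lower at 6 h (median -0.20) and 149 of 157 in exons 17 to 22 were higher (median 0.28). At 2 h, 20 of 23 and 154 of 158 were higher. Within exons 17 to 22, exon 20 was lower at 6 h, with 278 and 233 reads before KCl and 223 and 213 after 6 h. The 2 cytosines of exon 18 were lower at 6 h too. The boundary was chosen after the values were seen, and the difference between the exon groups was not tested.

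**Figure D3:**
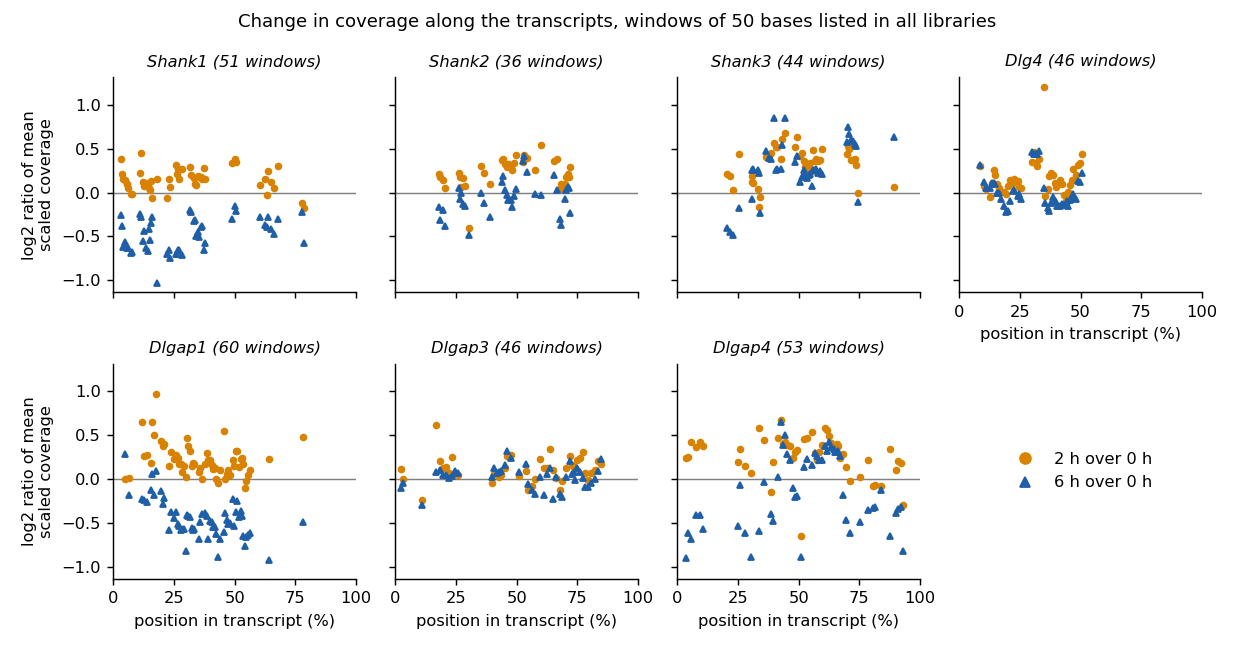
Log2 ratio of mean scaled coverage (vertical axes) at 2 h over 0 h (orange circles) and 6 h over 0 h (blue triangles) for each common window of 50 bases, by its position along the transcript in percent (horizontal axes), in the 7 genes with more than 1 window. Shank1 and Dlgap1 lie below 0 at 6 h along most of their length, Shank3 passes from below to above 0, and Dlgap4 is above 0 in the middle and below 0 toward both ends.

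Other genes of the postsynaptic density were read beside these 8 from a list of 46. By windows 43 could be tested. At 2 h 10 rose and 5 fell, at 6 h 17 rose and 14 fell, and between 2 h and 6 h 12 rose and 13 fell. Over all genes 18.5% and 21.3%, 30.9% and 33.5%, and 31.1% and 32.0% did so. The median log2 fold change of the list at 6 h was -0.03, against -0.00 over the 8 scaffold genes and -0.00 over all 8865 genes. By common cytosines 19 could be tested, with 2 rising and 2 falling at 2 h, 7 rising and 4 falling at 6 h, and 6 rising and 4 falling between 2 h and 6 h, against 13.7% and 14.3%, 28.9% and 33.2%, and 23.8% and 27.9% of all genes. Among the other MAGUKs the largest rise at 6 h was that of Dlg1, which encodes SAP97 and went from 254 and 264 reads per window at 0 h to 682 and 673 (log2 fold change 1.39 ± 0.089), and the largest fall was that of Dlg3, which encodes SAP102 (-0.66 ± 0.062). The sublists that follow are read against 30.9% of all genes rising and 33.5% falling at 6 h. Of the 13 scaffolds and adaptors tested, 8 rose and 2 fell. Tanc2 rose most (1.19 ± 0.063), and Cttn, which encodes the actin-binding protein cortactin, fell most (-1.05 ± 0.055). Of the 10 receptor and auxiliary subunit genes, 1 rose, Grin1, the obligatory NMDA receptor subunit (0.47 ± 0.056), and 5 fell. Of 7 signalling enzymes 3 rose and 2 fell, and of 6 adhesion genes 3 rose and 2 fell, from Lrrtm1 (0.96 ± 0.080) to the neuroligin Nlgn1 (-0.76 ± 0.139). Homer1, which binds SHANK proteins, had the largest rise of the scaffolds and adaptors at 2 h, from 636 and 572 reads per window to 1282 and 1056 (0.95 by windows, edgeR adjusted p = 0.000517).

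For each of the 5 genes with common cytosines, the closest pattern over the 6 libraries was sought among 1051 genes with at least 50 common cytosines. The distance was taken between gene-centred log2 scaled coverages. It was 0.0834 from Shank3 to Rtn3, 0.0453 from Dlg4 to Syp (synaptophysin), 0.0656 from Dlgap1 to Ppib, 0.0503 from Dlgap3 to Txn2, and 0.0782 from Dlgap4 to Nrd1. The median distance to all candidates ran from 0.356 for Dlgap3 to 0.812 for Dlgap1.

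Few cytosines of the 8 genes were methylated. The threshold was passed by 3 and 1 of them before KCl, by 1 and 1 after 2 h, and by 2 and 1 after 6 h, which is 0.0350% to 0.1004% of the listed cytosines of these genes in a library. Over all listed cytosines, those without a gene name included, 3688 to 6605 passed in a library, or 0.231% to 0.369%. Shank1, Shank2, Dlgap1, Dlgap3, and Dlgap4 had none in any library, although 772 to 1505 of their cytosines were listed in at least 1. Of the 207 cytosines listed in all 6 libraries, the pooled level had a median of 0.118% and was at least 1% in 11. Just outside the threshold were 9 values. Shank2 at position 144421368 of chromosome 7 missed it by its level, with 6 of 64 reads (9.38%) in 0 h replicate 1. The other 8 missed it with 5 unconverted reads. They were 4 neighbouring Dlg4 cytosines (10.6% to 14.3%) and the intronic Shank3 cytosine at 89555387 (16.7%) in 6 h replicate 1, Dlg4 at position 70045691 (20.8%) in 0 h replicate 1, and Dlgap4 at position 156742671 (35.7%) and Shank2 at position 144423168 (12.5%) in 2 h replicate 1.

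The Shank3 cytosine at position 89524080 of chromosome 15, in the coding part of exon 11, was the only one of the 8 genes listed in all 6 libraries that passed in any. Its unconverted reads were 39 of 315 and 16 of 271 before KCl, 35 of 298 and 45 of 369 after 2 h, and 17 of 222 and 20 of 195 after 6 h. The levels were 12.4% (95% Wilson interval 9.19 to 16.48) and 5.90% (3.67 to 9.37) before KCl, 11.7% (8.57 to 15.9) and 12.2% (9.24 to 15.9) after 2 h, and 7.66% (4.84 to 11.9) and 10.3% (6.74 to 15.3) after 6 h. Both libraries at 2 h passed the threshold, while 1 library passed at 0 h and 1 at 6 h, and the 0 h values overlapped those of both later times, while both 2 h values lay above both 6 h values. Such intervals cover counting error only. Of the 12 other cytosines within 10 bases, 2 or 3 were listed in a library, with levels up to 2.3%.

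From 0 h to 2 h the level of this cytosine changed by 2.61 percentage points, from 9.39% to 11.99% with replicates summed (two-sided Fisher's exact test, p = 0.145, adjusted p = 0.421). From 2 h to 6 h it changed by -3.12 points (Fisher's exact adjusted p = 0.307). For 6 h against 0 h it was outside the rule, since it passed in only 1 replicate of each of these times, and with sites chosen by 1 library the difference was -0.51 points (Fisher's exact adjusted p = 0.994). The first comparison turned on which 0 h library was used. Without 0 h replicate 1 the difference was 6.09 points (Fisher's exact adjusted p = 0.0449), and without 0 h replicate 2 it was -0.39 points. Of all sites tested, 15.4% passed for 2 h against 0 h, 10.6% for 6 h against 0 h, and 20.6% for 6 h against 2 h. The test sums the replicates and leaves out their spread.

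The intronic Shank3 cytosine at position 89555387 lies 5505 bases after exon 21 and 2348 before exon 22. It had 8 of 37 (21.6%) and 7 of 26 (26.9%) unconverted reads at 0 h, 1 of 18 (5.56%) in 2 h replicate 1, and 5 of 30 (16.7%) in 6 h replicate 1. It was not listed in the other 2 libraries, where it had fewer than 10 reads or no unconverted read, and was not tested with all libraries. With the library that lacked it left out, the difference from 0 h was -18.3 points at 2 h (Fisher's exact adjusted p = 0.313) and -7.14 points at 6 h (Fisher's exact adjusted p = 0.741). None of the 9 other cytosines within 10 bases was listed. The nearby cytosine at position 89555324 was listed in 6 h replicate 1 alone, with 7 of 32 reads (21.9%), and the Dlgap2 cytosine in the 5′ UTR at position 14179602 of chromosome 8 in 0 h replicate 1 alone, with 10 of 35 (28.6%). At 0 h the 95% Wilson intervals of the first were 11.4 to 37.2 and 13.7 to 46.1, so that these shallow cytosines are known only roughly.

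The Dlg4 cytosine in exon 12, at position 70041458 of chromosome 11, passed in 6 h replicate 1 with 6 of 36 reads (16.7%, 95% Wilson interval 7.87 to 31.9). In that library all 5 other cytosines within 10 bases were listed too, with levels up to 14.3%. In the other 3 libraries that listed it, it had 1 of 48, 1 of 47, and 2 of 27 unconverted reads. The Dlg4 cytosine in exon 18, at position 70043683, differed from this in being deep and steady. Its levels were 1.95% and 2.01% before KCl, 2.20% and 1.91% after 2 h, and 2.34% and 2.22% after 6 h, at 2779 to 3457 reads. The other cytosines within 10 bases reached at most 0.3%.

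**Figure D4:**
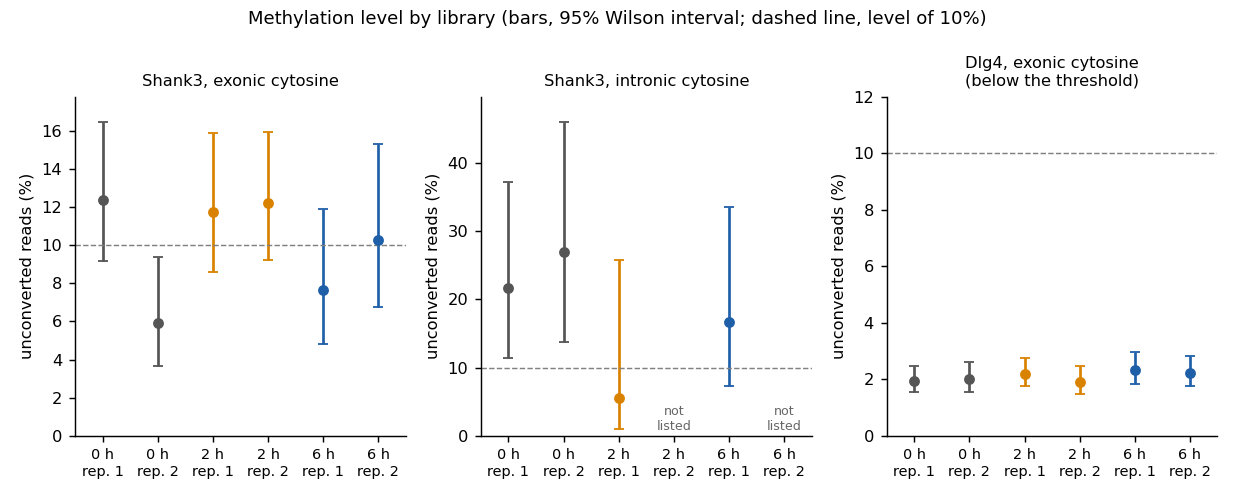
Unconverted reads in percent with 95% Wilson intervals (vertical axes) in each of the 6 libraries (horizontal axes) for the Shank3 cytosine in exon 11, the Shank3 intronic cytosine, and the Dlg4 cytosine in exon 18. The dashed line marks a level of 10%. The exonic Shank3 cytosine straddles that line with overlapping intervals, the intronic one is listed in 4 libraries with wide intervals, and the Dlg4 cytosine stays near 2% in all 6.

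The known RNA methyltransferases NSUN2 and NSUN6 are associated with short motifs, and these were searched on the RNA strand from the measured cytosine on. CNGGG, associated with NSUN2, followed in 1.90% of all listed cytosines. It followed in 401 of the 7291 that had a gene name and passed in at least 1 library. None of the 5 of the scaffold genes had it. CTCCA, associated with NSUN6, followed in 0.737% of all listed cytosines, in 0.768% of those that passed, and again in none of the 5. The exonic Shank3 sequence printed above is rich in cytosine, with 13 of its 21 bases.

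Unconverted cytosines often came in runs, that is, as consecutive cytosines of the transcript that were all listed. In Dlg4 the number of listed cytosines lying in runs of at least 10 was 266 of 445 and 385 of 506 before KCl, 124 of 370 and 267 of 437 after 2 h, and 531 of 604 and 438 of 549 after 6 h. The longest run, of 220 cytosines, was in Dlg4 in 6 h replicate 1. Only 17.5% of the Dlg4 cytosines listed in that library had a single unconverted read, against 43.5% to 58.1% in the other 5. In Dlgap3 the number was 96 of 301 and 57 of 227 before KCl, 67 of 270 and 0 of 256 after 2 h, and 0 of 244 and 0 of 229 after 6 h. Over the 8 genes together, 6 h replicate 1 listed 3899 cytosines with 0.302% of reads unconverted, while the other libraries had 0.185% to 0.226%. The part of these runs in the methylation levels was not tested.

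**Figure D5:**
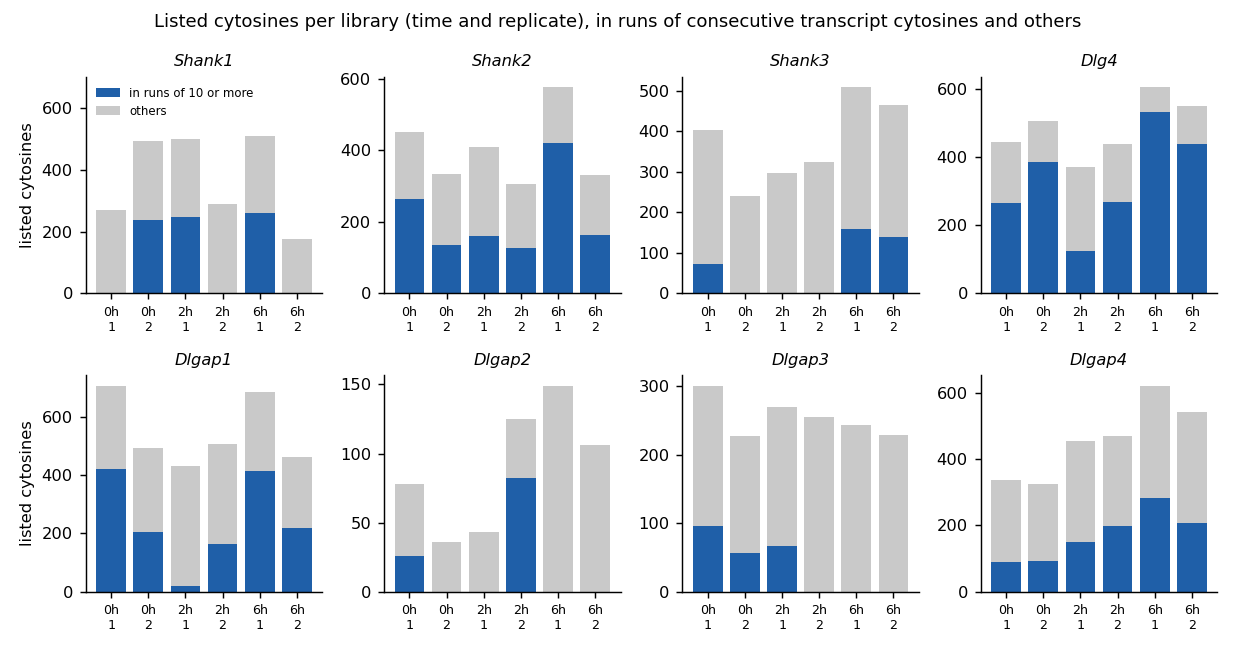
Number of listed cytosines (vertical axes) of each of the 8 genes in the 6 libraries (horizontal axes, time point and replicate), split into those in runs of at least 10 consecutive transcript cytosines (blue) and the others (grey). Dlg4 in 6 h replicate 1 has 531 of its 604 listed cytosines in runs, and Shank1 has none in 3 of the 6 libraries.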

How the data were processed

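Per the methods, trimmed reads were mapped to GRCm38 by meRanTK, and its meRanCall listed the cytosines. The authors deposited, per library, read counts at each listed cytosine (coverage and unconverted reads) and the methylation level as a fraction, without normalization. Per the labels, R 4.1.1 and mm10 were used. Positions without a gene name, 1.71% to 2.22% of a library, were left out of the tests. They were kept in the totals of listed cytosines and of cytosines passing in a library.

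The members, gene lists, and tests were chosen with earlier results of these data known. Coverage was tested with edgeR 4.0.16 (quasi-likelihood, TMM scaling, all 6 libraries), with Benjamini-Hochberg adjustment over all genes at 0.05. The log2 ratios of 3′ over 5′ coverage were tested with limma 3.58.1. Cytosines passing in both replicates of a time point, with at least 10 reads in all 4 libraries compared, were tested with two-sided Fisher's exact tests. The study's further m5C filters, on signal to noise ratio, false discovery rate, and predicted RNA structure, were not applied. Named cytosines were those passing in both replicates of a time point, then the highest of the others that passed. Exons follow GENCODE, and sequences the RefSeq GRCm38 genome. On simulated counts for 6 h against 0 h over 2671 genes, 87 of 100 changes of 0.5 and 100 of 100 changes of 1 (log2) were recovered, with 12 false calls. Gene coverage by windows and changes smaller than 0.5 were not simulated. DESeq2 1.42.0, other filters and scalings, the replicate block, and leaving out each library were the alternatives. Up to 4 other annotated genes overlap a member, and reads shared with them were not separated.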

Additional observations from a re-analysis of the deposited data

How the results depend on the processing

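The coverage falls of Shank1 and Dlgap1 and the rises of Shank3 and Dlgap2 at 6 h, and the rise of Dlgap4 at 2 h, passed the threshold by windows with any 1 library left out. Windows were chosen after seeing the data. Summing every listed cytosine, a set that differs between libraries, tested all 8 genes and called 0 at 6 h. It ended the calls of the 4 genes called by common cytosines and of Shank1 and Dlgap2, called by windows. At 2 h it called 0, which ended the 1 call by common cytosines and the 4 by windows. For 6 h against 2 h it called 2. Standard errors were then larger (0.136 to 0.292 in the 4 genes called by common cytosines). The differences were -0.70 in Dlgap1, 0.54 in Shank3, and 0.34 in Dlgap4 at 6 h and 0.62 in Dlgap4 at 2 h. None of these was smaller than by common cytosines. In Dlg4 the difference at 6 h was smaller and turned its direction (0.0860). With genes of at least 1 common cytosine, 7 members were tested, and 2 were called at 2 h and 2 for 6 h against 2 h. With at least 20, only 2 were tested, and 2 were called at 6 h and 0 for 6 h against 2 h. DESeq2 called 2 of 5 at 2 h, and windows called 4 of 8 at 2 h and 6 of 8 for 6 h against 2 h. Over all genes, 749 of 2671 were called at 2 h. With every listed cytosine it was 394 of 14359, and by windows 3525 of 8865. With at least 1 common cytosine it was 1383 of 4811, and with at least 20 it was 440 of 1654. With at least 1, with at least 20, and by windows, 1659 calls at 6 h became 2940, 982, and 5707. In the same order, 1382 for 6 h against 2 h became 2608, 782, and 5594. The direction turned at 2 h with every listed cytosine in Dlg4 (0.0773), Dlgap1 (0.21), Dlgap2 (0.55), and Dlgap3 (0.19), with at least 1 in Dlgap1 (0.0558) and Dlgap3 (0.0289), and by windows in Dlg4 (0.11), Dlgap1 (0.19), and Dlgap3 (0.12). At 6 h it turned with every listed cytosine in Shank2 (0.31) and Dlg4 (0.0860), with at least 1 in Shank2 (0.0381) and Dlgap3 (0.000515), and by windows in Dlgap3 (0.0412), and for 6 h against 2 h in Dlg4 with every listed cytosine (0.00869). The cause was not tested.

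Leaving out 1 library gave 328 to 930 calls over all genes at 2 h, 1211 to 1899 at 6 h, and 852 to 1566 for 6 h against 2 h, with 0 to 1 members at 2 h and 1 to 4 at 6 h. By windows it gave 2133 to 4007 calls and 1 to 3 members at 2 h, and 3 to 6 members for 6 h against 2 h. Directions that turned were those of Shank1 (-0.00758 to 0.32), Dlgap1 (-0.0287 to 0.0276), and Dlgap2 (-0.15 to 0.0759) at 2 h, of Shank3 (-0.0210 to 0.12, by windows -0.0520 to 0.11) and Dlgap4 (-0.0808 to 0.0139) for 6 h against 2 h, and of Dlg4 at 6 h by windows (-0.0972 to 0.000803). The Shank3 cytosine ranged from -0.39 to 6.09 points at 2 h. Sites called over all genes ranged from 158 to 890 at 6 h and from 303 to 1073 for 6 h against 2 h, both highest without 6 h replicate 2.

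Of 286, 192, and 387 sites called at 2 h, at 6 h, and for 6 h against 2 h, the quasi-binomial model and limma called 0, 0, and 0, with 252, 113, and 133 and with 146, 72, and 140 at an unadjusted p under 0.05. A difference of at least 10 points left 159 and 106 of the first 2 counts, and choosing sites by 1 library gave 329 at 6 h and 645 for 6 h against 2 h. With at least 3 unconverted reads the methylated member cytosines were 10 and 4 before KCl, 6 and 3 after 2 h, and 14 and 8 after 6 h. A level of 0.05 gave 3 in 0 h replicate 2, 2 in 2 h replicate 1, and 4 in 6 h replicate 1.

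The replicate numbers are shared by the time points, but the labels name no shared culture, and deviations of same-numbered libraries correlated at 0.44, -0.26, and -0.26 in the 3 comparisons. Under the replicate block the calls came to 702, 1628, and 1350 genes, 1, 3, and 1 members, and 262, 221, and 479 sites. By common cytosines the block ended the call of Dlg4 at 6 h (adjusted p = 0.0576), as did RLE scaling (0.0508). By windows, in fits added after seeing the data, the block gave 3434, 5685, and 5587 genes and 2, 5, and 5 members, and RLE scaling 3550, 5686, and 5569 genes and 4, 5, and 5 members. The block ended the calls of Shank2 (0.0535) and Dlgap1 (0.0506) at 2 h and of Dlg4 for 6 h against 2 h (0.0584), and RLE scaling ended the last (0.0554). By windows Dlg4, Dlgap1, and Dlgap3 at 2 h had log2 fold changes of 0.11, 0.19, and 0.12 under the block and 0.11, 0.19, and 0.13 under RLE scaling, and Dlgap3 at 6 h 0.0412 and 0.0571. Scaling by total coverage moved the share of higher calls at 2 h from 49.0% to 39.0%, and summing every listed cytosine moved it to 69.3%. With 2 libraries a time point, intervals of small changes are wide, and unlisted cytosines have no level.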
